A study of Homo sapiens with 17 samples.

Results

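The comparison of 16 mM acetaldehyde with control used 11 of the 17 samples of the series, the 5 whose labelled treatment was 16 mM and the 6 labelled as control. All came from BEAS-2B, a human bronchial epithelial line, immortalised and labelled wild type, that was kept in bronchial epithelial growth medium (BEGM). The exposed cultures received acetaldehyde in that medium for 24 h and the controls received none. Messenger RNA was enriched by its poly-A tail and sequenced, and each gene's level is given in FPKM (sequenced fragments scaled by transcript length and by the sample's total), as the mean ± SD over the 6 controls or the 5 exposed samples. The remaining 6 samples had 10 mM for the same time and are brought in only where the doses are compared, without 10 mM sample 1, which stood apart from the rest of its group.

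Acetaldehyde is the first oxidation product of ethanol and a constituent of tobacco smoke, and its carbonyl group reacts with amines and thiols of proteins, glutathione and DNA bases. Damaged proteins release the transcription factor HSF1, which binds heat shock elements and switches on chaperone genes. Electrophiles that modify the sensor KEAP1 release NRF2, which binds antioxidant response elements in front of genes for glutathione synthesis, thioredoxin and ferritin. Aldehyde dehydrogenases, ALDH2 in mitochondria foremost, oxidise acetaldehyde to acetate.

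At 16 mM inducible heat shock genes, NRF2 targets, ERK-induced genes and ribosome biogenesis genes rose far more often than they fell, and matrix, integrin, neural adhesion and mesenchymal genes fell far more often than they rose, with the counts given for each below. Of 12410 genes tested with edgeR's quasi-likelihood test, 4053 rose (32.7%) and 3926 fell (31.6%) at a Benjamini-Hochberg adjusted p under 0.05. A change of at least 2-fold was met by 417 of the risen genes (3.36%) and 931 of the fallen genes (7.5%). With so many genes passing in each direction, counts of gene groups below are to be read against these shares.

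Total counts lay between 16618130 and 17181707 in control and between 15952673 and 17245285 at 16 mM. Within both groups samples 1 to 3 resembled each other more than samples 4 and up, which in turn resembled each other. Chi-square per degree of freedom over genes was 1.83 to 2.32 within the sets of the 16 mM group and 26.2 to 33.7 between them, and in control 1.98 to 11.6 within and 20.5 to 53.6 between. Control sample 1 was less close to its set, at 11.6 from control 2 and 11.2 from control 3, which were 1.98 apart, and at 20.5 from control 6. The labels name no batch and do not say that the samples of a group were separate cultures, so the p-values describe the spread among these samples, which may be technical. A stricter count is therefore given beside most counts of gene groups against control: genes that also passed when counts were summed within each set, 2 sums against 2. By it 1266 genes rose (10.2%) and 1503 fell (12.1%). A fit over all 17 samples, which takes in the outlying 10 mM sample, called 2169 and 2270 genes, and of the genes named below it did not call HSPE1, CCT2, CHAC1, HMOX1, GSTO1, RRP9, RPL3, PSMA1, MCM5, CDC45, UNG, PMAIP1, CENPE, NDUFV1, AKT1 and POLR2I. The same fit without 10 mM sample 1 called 4232 genes higher and 4039 lower, and it called all of these named genes.

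**Figure D1:**
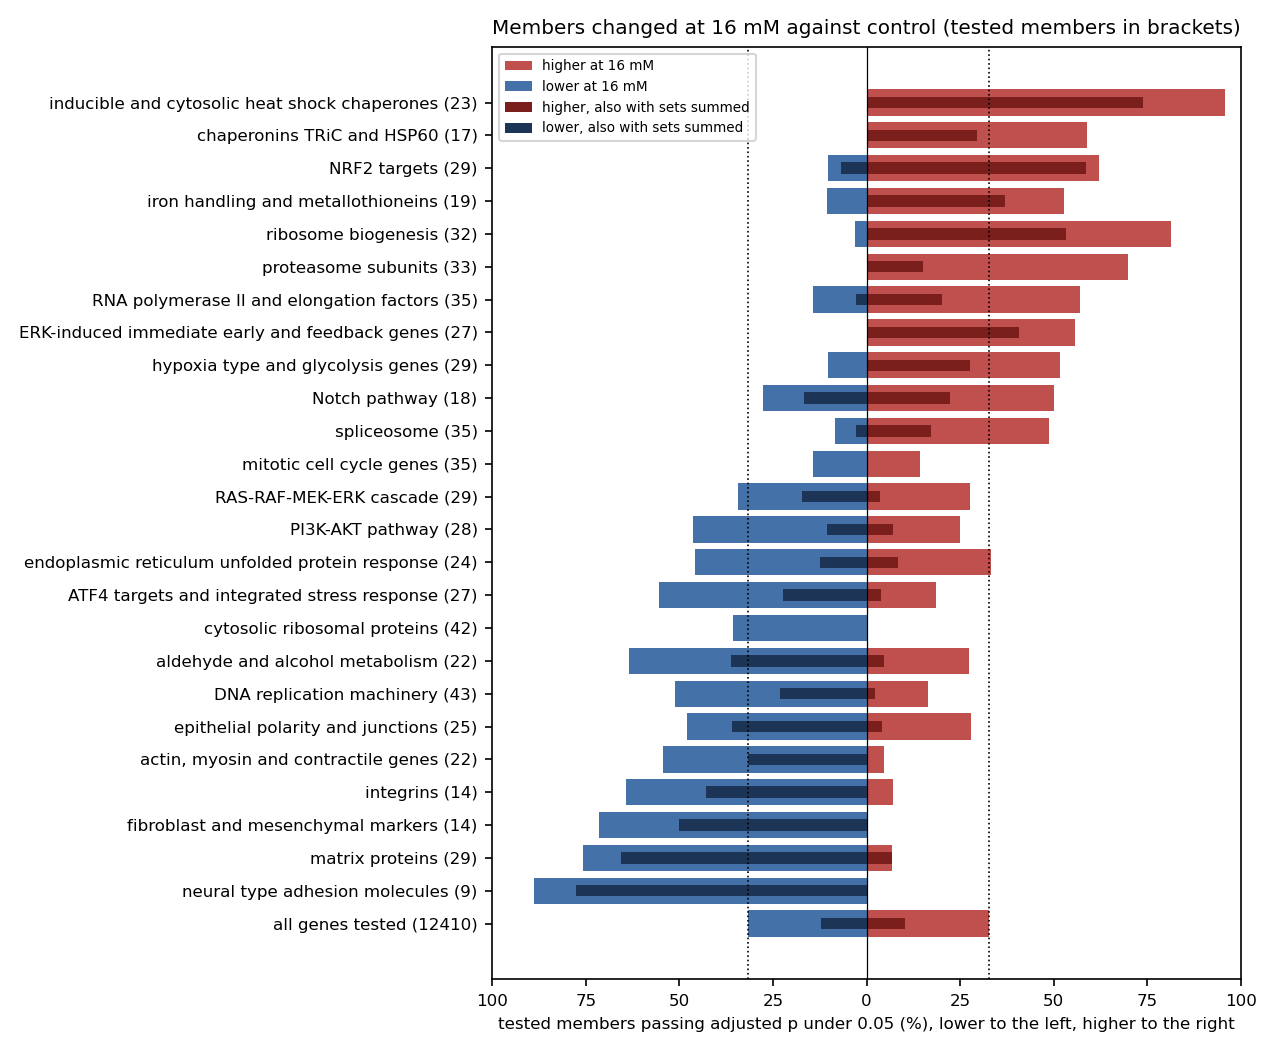
Share of the tested members of 25 gene groups that passed at an adjusted p under 0.05, higher at 16 mM to the right and lower to the left, in percent, with the members tested in brackets. Narrow dark bars give the share that also passed with the sets summed, and dotted lines the shares among all 12410 genes (32.7% and 31.6%): heat shock chaperones reach 95.7% higher and matrix proteins 75.9% lower.

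The labelled cell type was checked first. Keratins of simple epithelium were abundant, with KRT7 at 559 ± 157 FPKM and KRT8 at 306 ± 115 FPKM in control, whereas the epithelial adhesion genes CDH1 (0.045 FPKM) and EPCAM (0.0167 FPKM), the basal cell genes KRT5 (0.06 FPKM) and TP63 (0.0783 FPKM) and the goblet cell mucins MUC5AC and MUC5B were at or near 0. Vimentin, VIM, a filament protein of mesenchymal cells, stood at 773 ± 175 FPKM. Of 21 airway epithelial markers in the table, 8 reached 1 FPKM in control, as did 12 of 19 fibroblast markers, 0 of 9 endothelial markers and 1 of 10 immune markers. The last was CD68, a glycoprotein of lysosomes that rose from 3.32 ± 0.669 to 12.1 ± 1.399 FPKM, while the pan-leukocyte gene PTPRC was at 0 FPKM. The summed level of the immune markers was 3.23 to 5.09 FPKM in control and 11.8 to 14.7 FPKM at 16 mM, most of it CD68, that of the endothelial markers 0.77 to 1.13 and 0.71 to 1.15 FPKM, and that of the airway epithelial markers 987 to 1777 and 1240 to 1343 FPKM. The culture carried keratins beside mesenchymal genes and lacked several genes that define airway epithelium in tissue.

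Cytosolic and inducible heat shock genes rose as a group. Of 23 tested members 22 rose and 0 fell, 14 of them at least 2-fold, 17 also with the sets summed, and the median member changed by 1.45 on the log2 scale against 0.0043 over all genes. Before the values, the promoters of the 3 members with the largest rises that hold a heat shock element pair are shown, from 250 bases before to 50 bases after the RefSeq start on GRCh38.p14, all on the plus strand, with each match to GAANNTTC in capitals. They lie at chr1:161524290-161524589, chr6:31815293-31815592 and chr6:31827488-31827787.
HSPA6: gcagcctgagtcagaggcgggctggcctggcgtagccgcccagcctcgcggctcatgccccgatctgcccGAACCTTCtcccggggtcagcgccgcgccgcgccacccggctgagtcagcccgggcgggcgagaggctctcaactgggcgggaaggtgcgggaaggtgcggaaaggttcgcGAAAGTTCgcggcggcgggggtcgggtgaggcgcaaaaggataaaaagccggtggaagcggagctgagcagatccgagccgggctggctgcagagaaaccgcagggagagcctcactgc
HSPA1A: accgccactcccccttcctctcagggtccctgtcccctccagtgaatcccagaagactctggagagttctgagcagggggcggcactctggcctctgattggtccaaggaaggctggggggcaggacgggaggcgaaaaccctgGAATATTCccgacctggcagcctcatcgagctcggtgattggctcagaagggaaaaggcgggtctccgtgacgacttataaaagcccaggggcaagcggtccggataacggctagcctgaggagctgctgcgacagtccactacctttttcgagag
HSPA1B: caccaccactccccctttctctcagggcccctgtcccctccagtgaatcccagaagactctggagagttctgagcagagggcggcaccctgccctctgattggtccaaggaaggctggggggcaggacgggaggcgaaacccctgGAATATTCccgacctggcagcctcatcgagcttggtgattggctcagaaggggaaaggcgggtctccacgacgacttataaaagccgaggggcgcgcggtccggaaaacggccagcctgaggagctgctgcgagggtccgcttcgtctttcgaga
The letters GAANNTTC read the same on both strands. Counted from the gene start, they begin at -180 and -69 for HSPA6, at -106 for HSPA1A and at -105 for HSPA1B. The same letters occurred in 9 of 20 promoters matched for this group (45%) and in 6.87% of all 27305 RefSeq windows of that length, as a description of the sequences and not of binding. Among windows of genes tested the share was 4.65%.

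HSPA6, a strictly inducible HSP70 chaperone (chromosome 1, 161524540 to 161527283, GRCh38.p13, the build of all gene coordinates below), stood at 0.06, 0.16 and 0.32 FPKM in the controls (lowest, median and highest) and at 6.09, 10.3, 8.23, 15.9 and 15.04 FPKM in 16 mM samples 1 to 5. The groups did not overlap, and 16 mM samples 4 and 5 were the highest. It rose 59.3-fold (log2 change 5.89 ± 0.37, estimate ± SE, edgeR adjusted p = 8.19e-08), on control counts of 2 to 11 per sample. Values with ± in parentheses are log2 changes with their SE from here on. HSPA1A, the main inducible HSP70, stood at 14.7, 22.3 and 47.2 FPKM in control and at 291, 346, 301, 610.5 and 590.0 FPKM at 16 mM, again without overlap. Its log2 change was 4.01 ± 0.39 (edgeR adjusted p = 2.22e-06) and that of HSPA1B 3.49 ± 0.33 (edgeR adjusted p = 2.13e-06). The copies are near-identical, so how reads divide between them is uncertain. HSPH1, which resets HSP70 by exchanging its nucleotide (chromosome 13, 31134973 to 31162388), stood at 36.9, 41.98 and 58.6 FPKM in control and at 169.7, 185, 183, 303 and 284 FPKM at 16 mM, a rise of 2.31 ± 0.21 (edgeR adjusted p = 1.43e-06).

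HSF1, the transcription factor that drives these genes, did not pass, with 43.7 ± 5.18 to 47.8 ± 2.899 FPKM (log2 change 0.11 ± 0.06, edgeR adjusted p = 0.143), although in samples 4 and up alone it stood at 0.23 (edgeR adjusted p = 8.00e-04). Among the chaperonins, ring-shaped folding chambers of the cytosol (TRiC) and of mitochondria (HSP60), 10 of 17 tested members rose and 0 fell (5 and 0 with the sets summed). TCP1, a TRiC subunit, rose from 124 ± 29.1 to 285 ± 57.99 FPKM (1.22 ± 0.2, edgeR adjusted p = 1.63e-04). CCT2, another subunit, rose from 121 ± 14.9 to 225 ± 24.2 FPKM (0.91 ± 0.12). HSPE1, the lid of the mitochondrial chamber, rose from 212 ± 77.2 to 498 ± 122 FPKM (1.23 ± 0.26).

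Chaperones of the endoplasmic reticulum changed in both directions. Of 24 genes of the unfolded protein response of that organelle 8 rose and 11 fell (2 and 3 with the sets summed), with a median of -0.15. HSP90B1, the HSP90 of the organelle, went from 455 ± 112 to 263 ± 8.74 FPKM (-0.78 ± 0.17, edgeR adjusted p = 0.00167, but edgeR adjusted p = 0.0877 with the sets summed). CALR, the calcium-binding lectin chaperone, went from 578 ± 149 to 342 ± 5.29 FPKM (-0.75 ± 0.18, edgeR adjusted p = 0.00252, but edgeR adjusted p = 0.0916 with the sets summed). PDIA4, a disulfide isomerase, fell from 123 ± 17.2 to 76.7 ± 3.23 FPKM (-0.67 ± 0.11), whereas ERO1B, an oxidase that recharges such isomerases, rose from 6.26 ± 0.882 to 10.8 ± 0.738 FPKM (0.77 ± 0.08, edgeR adjusted p = 3.01e-06).

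ATF4 drives amino acid supply genes when translation initiation is curbed, and of 27 of its targets 5 rose and 15 fell (1 and 6 with the sets summed). CHAC1, a glutathione-degrading enzyme, fell from 54.4 ± 6.302 to 24.3 ± 12.2 FPKM (-1.16 ± 0.27, edgeR adjusted p = 0.00226). ATF3, a stress-induced repressor that ATF4 and ERK activity both induce, rose from 12.2 ± 3.76 to 36.2 ± 7.73 FPKM (1.58 ± 0.19, edgeR adjusted p = 1.29e-05). DDIT4, an inhibitor of mTOR signalling, stood at 104, 265 and 369 FPKM in control and at 134, 139, 134, 72.2 and 70.2 FPKM at 16 mM. Its groups overlapped, its log2 change was -0.09 in samples 1 to 3 and -2.22 in samples 4 and up, and the overall log2 change of -1.17 ± 0.36 (edgeR adjusted p = 0.0123) did not pass with the sets summed (edgeR adjusted p = 0.056). The letters TGATGNAA of the composite site of CHOP and ATF4 occurred on either strand in 6 of 23 promoters of this group (26.1%). They occurred in 3.67% of all RefSeq windows and in 1.59% of windows of genes tested.

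NRF2 targets rose more often than they fell, the ferritins among them. Of 29 tested targets 18 rose and 3 fell (17 and 2 with the sets summed), 13 of the rises at least 2-fold, with a median of 0.9. Promoters of the 3 members with the largest rises that hold the antioxidant response element core TGACNNNGC on either strand are shown in the same way, with the match in capitals. They lie at chr1:93909381-93909680 (minus strand), chr12:104215529-104215828 (plus strand) and chr21:36069774-36070073 (plus strand).
GCLM: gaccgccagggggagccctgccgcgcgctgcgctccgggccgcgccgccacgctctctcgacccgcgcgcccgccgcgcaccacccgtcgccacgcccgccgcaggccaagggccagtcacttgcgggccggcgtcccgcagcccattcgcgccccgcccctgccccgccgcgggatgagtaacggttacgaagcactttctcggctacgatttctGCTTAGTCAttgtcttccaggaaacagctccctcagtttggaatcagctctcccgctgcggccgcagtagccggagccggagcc
TXNRD1: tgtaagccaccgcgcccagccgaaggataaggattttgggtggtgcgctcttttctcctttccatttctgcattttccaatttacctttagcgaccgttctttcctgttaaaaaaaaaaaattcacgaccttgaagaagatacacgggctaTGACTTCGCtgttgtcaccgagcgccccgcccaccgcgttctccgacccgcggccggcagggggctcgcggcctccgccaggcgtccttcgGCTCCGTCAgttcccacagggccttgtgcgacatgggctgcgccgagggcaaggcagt
CBR1: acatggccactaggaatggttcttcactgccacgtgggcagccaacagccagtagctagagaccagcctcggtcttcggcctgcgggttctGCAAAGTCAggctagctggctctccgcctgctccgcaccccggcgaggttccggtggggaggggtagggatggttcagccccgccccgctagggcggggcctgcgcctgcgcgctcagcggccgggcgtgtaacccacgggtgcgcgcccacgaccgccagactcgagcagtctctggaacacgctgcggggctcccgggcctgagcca
The core was found in 5 of 22 promoters matched for this group (22.7%), in 13.6% of all RefSeq windows and in 14.9% of windows of genes tested. It was held by 3 of 15 risen targets and 1 of 2 fallen ones, and by 15.3% of all genes at least 2-fold higher. This window is short, and the sequence further upstream was not searched.

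OSGIN1, a growth inhibitor induced by oxidative stress (chromosome 16, 83953240 to 83966332), stood at 0.48, 0.635 and 1.07 FPKM in control and at 9.15, 9.48, 10.2, 19.4 and 18.9 FPKM at 16 mM. No control reached any exposed sample, and its change of 4.24 ± 0.3 (edgeR adjusted p = 2.50e-07) was the largest of the group. GCLM, the regulatory subunit of the enzyme that limits glutathione synthesis, stood at 11.7, 12.8 and 13.7 FPKM in control and at 36.4, 38.3, 37.6, 46.98 and 45.6 FPKM at 16 mM without overlap (1.7 ± 0.1, edgeR adjusted p = 5.46e-08). SRXN1, which repairs overoxidised peroxiredoxins, rose from 29.5 ± 2.51 to 86.6 ± 13.6 FPKM (1.58 ± 0.13). SQSTM1, the autophagy receptor p62, rose from 131 ± 7.69 to 383 ± 37.5 FPKM (1.57 ± 0.09). TXNRD1, the reductase of thioredoxin, rose from 111 ± 28.9 to 263 ± 47.2 FPKM (1.26 ± 0.21). CBR1, a reductase of carbonyl compounds, rose from 50.3 ± 6.05 to 89.2 ± 8.28 FPKM (0.84 ± 0.11, edgeR adjusted p = 4.00e-05). HMOX1, which degrades heme and releases its iron, stood at 14.7, 14.8 and 16.6 FPKM in control and spread over 41.7, 51.4, 41.9, 100.5 and 106 FPKM at 16 mM (2.19 ± 0.27, edgeR adjusted p = 1.79e-05). The transcript of NRF2 itself, NFE2L2, did not pass (56.5 ± 4.09 to 53.8 ± 4.41 FPKM, -0.06 ± 0.07, edgeR adjusted p = 0.448).

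Of 19 genes of iron handling and metallothioneins 10 rose and 2 fell (7 and 0 with the sets summed), and both iron storage and iron uptake genes were among the risen. FTL, the light chain of ferritin (chromosome 19, 48965309 to 48966879), stood at 1529, 1544 and 1678 FPKM in control and at 4431, 4141, 4121, 4739 and 4804 FPKM at 16 mM, 2.85-fold higher (edgeR adjusted p = 4.34e-08). FTH1, the heavy chain, rose from 1066 ± 76.4 to 2576 ± 347 FPKM (1.29 ± 0.1). TFRC, the receptor that takes up transferrin-bound iron (chromosome 3, 196018476 to 196082123), rose 5.99-fold, from 16.9 ± 3.92 to 99.4 ± 22.6 FPKM (2.58 ± 0.2, edgeR adjusted p = 5.07e-07). Against 10 mM the ferritins did not pass (FTL -0.25 ± 0.13, edgeR adjusted p = 0.129 and FTH1 -0.01 ± 0.15, edgeR adjusted p = 0.977), while TFRC was higher at 16 mM (0.62 ± 0.19, edgeR adjusted p = 0.0217).

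Enzymes that handle aldehydes fell more often than they rose. In the list of aldehyde and alcohol metabolism 6 of 22 tested members rose and 14 fell (1 and 8 with the sets summed), with 5 falls of at least 2-fold. ALDH3A1, an aldehyde dehydrogenase of airway and cornea, fell from 1.54 ± 0.481 to 0.36 ± 0.0579 FPKM (-2.17 ± 0.3, edgeR adjusted p = 4.20e-05). ALDH1L1, a folate-dependent member, fell from 6.805 ± 0.674 to 2.502 ± 0.232 FPKM (-1.43 ± 0.09). ALDH3B1, which oxidises lipid aldehydes, fell from 25.7 ± 1.47 to 10.2 ± 2.39 FPKM (-1.33 ± 0.11, edgeR adjusted p = 6.20e-07). ALDH2 itself fell by 0.38 ± 0.10 on the log2 scale, with values of -0.64 in samples 1 to 3 and -0.08 in samples 4 and up, and this did not pass with the sets summed (edgeR adjusted p = 0.172). Glutathione transferases and peroxidases counted 4 higher and 9 lower of 15 (2 and 3 with the sets summed), with GSTZ1, an enzyme of tyrosine breakdown, falling from 28.3 ± 5.04 to 9.08 ± 0.661 FPKM (-1.57 ± 0.1, edgeR adjusted p = 1.25e-07) and GSTO1, a thioltransferase, rising from 154 ± 32.4 to 299 ± 82.6 FPKM (0.97 ± 0.21, edgeR adjusted p = 0.00137). Among peroxiredoxins, catalase, superoxide dismutases and methionine sulfoxide reductases 4 rose and 8 fell of 17 (0 and 3 with the sets summed). PRDX1 went from 334 ± 163 to 756 ± 149.5 FPKM (1.18 ± 0.34, edgeR adjusted p = 0.00806, but edgeR adjusted p = 0.0627 with the sets summed).

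**Figure D2:**
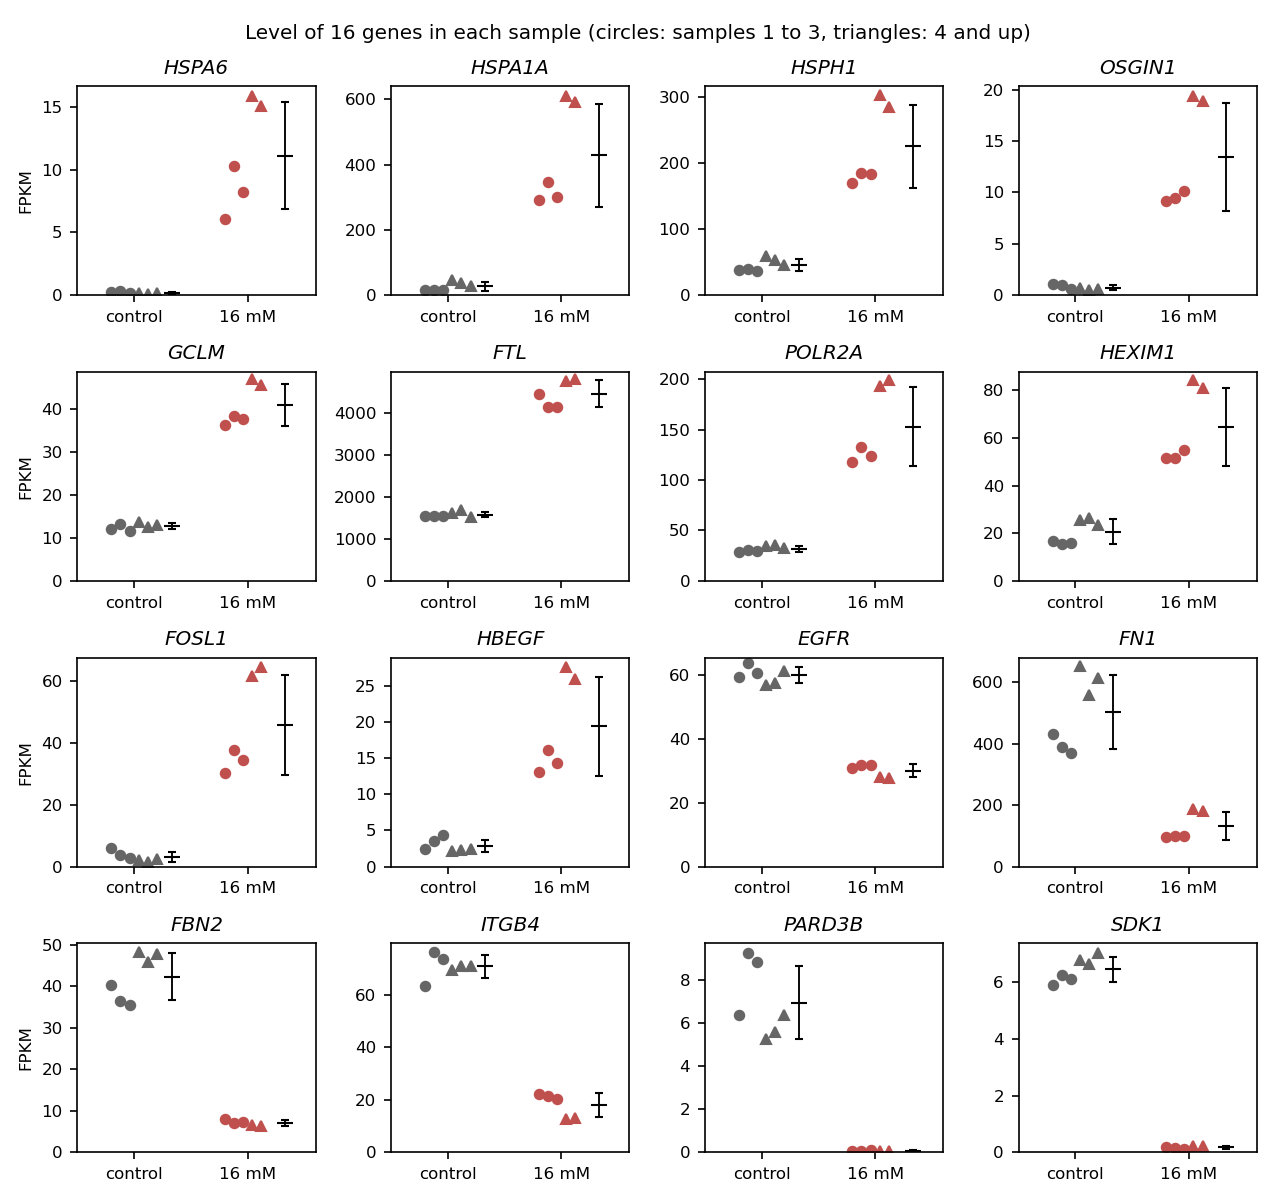
FPKM of 16 genes in each of the 6 controls (grey) and 5 samples at 16 mM (red), circles for samples 1 to 3 and triangles for samples 4 and up, with the mean and SD as a bar beside each group. In no panel do the groups overlap, as for HSPA6 at 0.32 FPKM at most in control and 6.09 FPKM at least at 16 mM. For panels taken from the largest rises and falls this was fixed by the choice of genes without overlap. Over all genes tested, 2954 risen and 2776 fallen genes had no overlap.

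Genes for making and handling RNA rose more often than they fell, with the largest subunit of RNA polymerase II in front. POLR2A, which holds the catalytic centre and the carboxy-terminal repeat domain of the polymerase, stood at 28.5, 31.8 and 35.2 FPKM in control and at 118, 132, 124, 193 and 199 FPKM at 16 mM. Every exposed sample lay above every control, and the rise was 4.89-fold (log2 2.29 ± 0.17, edgeR adjusted p = 3.47e-07). HEXIM1, which together with 7SK RNA holds the elongation kinase P-TEFb inactive, stood at 15.3, 20.1 and 26.5 FPKM in control and at 51.5, 51.6, 54.9, 84.3 and 80.9 FPKM at 16 mM (1.67 ± 0.22, edgeR adjusted p = 3.11e-05). CCNT1, the cyclin of that kinase, rose from 14.7 ± 1.64 to 27.9 ± 2.03 FPKM (0.95 ± 0.08, edgeR adjusted p = 7.48e-07). ELL, an elongation factor, rose from 6.84 ± 0.746 to 13.6 ± 3.17 FPKM (1.02 ± 0.15). In the list of RNA polymerase II and elongation factors 20 of 35 tested members rose and 5 fell (7 and 1 with the sets summed), and among the other subunits POLR2B rose by 0.75 ± 0.12 (edgeR adjusted p = 1.42e-04), while POLR2I stood at -0.36 ± 0.09 (edgeR adjusted p = 0.00466, but edgeR adjusted p = 0.287 with the sets summed).

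Of 35 spliceosome genes 17 rose and 3 fell (6 and 1 with the sets summed). SNRPA, the A protein of the U1 particle that recognises the start of introns (chromosome 19, 40751203 to 40765389), went the other way: it stood at 109, 119 and 133 FPKM in control and at 37.3, 39.6, 39.5, 38.2 and 39.6 FPKM at 16 mM, a log2 change of -1.61 ± 0.06 (edgeR adjusted p = 1.03e-09). Ribosome biogenesis genes rose in 26 of 32 cases and fell in 1 (17 and 0 with the sets summed), with a median of 0.56. The summed level of the list nevertheless overlapped between the groups, at 3213 to 3665 FPKM in control and 3185 to 3761 FPKM at 16 mM. GNL3, a nucleolar GTPase, rose from 46.7 ± 2.57 to 105 ± 8.401 FPKM (1.18 ± 0.08, edgeR adjusted p = 1.25e-07). RRP9, a part of the U3 particle that processes ribosomal RNA, rose from 13.3 ± 2.03 to 28.97 ± 1.35 FPKM (1.15 ± 0.09). NOP2, a ribosomal RNA methyltransferase, rose from 28.2 ± 3.44 to 59.1 ± 6.29 FPKM (1.09 ± 0.1). The ribosomal proteins themselves counted 0 higher and 15 lower of 42, none of which passed with the sets summed (0 and 0). RPL3, a core protein of the large subunit, went from 1877 ± 87.2 to 1228 ± 140.5 FPKM (-0.6 ± 0.11, edgeR adjusted p = 3.35e-04, but edgeR adjusted p = 0.178 with the sets summed).

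Proteasome genes rose in 23 of 33 cases and fell in 0, 5 also with the sets summed, by small amounts: the median was 0.38, and 0 rose at least 2-fold. PSMA1, a subunit of the core ring, rose from 113 ± 15.4 to 186 ± 16.4 FPKM (0.73 ± 0.12, edgeR adjusted p = 1.67e-04). PSMD12, a scaffold of the lid, rose from 41.5 ± 1.903 to 66.7 ± 10.3 FPKM (0.71 ± 0.11, edgeR adjusted p = 8.80e-05). Of 30 autophagy genes 17 rose and 7 fell (6 and 3 with the sets summed). Lysosome genes counted 10 higher and 9 lower of 30 (6 and 2 with the sets summed), shares near those of all genes. MCOLN1, a calcium channel of the organelle, rose from 11.5 ± 0.979 to 21.4 ± 2.93 FPKM (0.92 ± 0.1). CTSL, a cysteine protease, rose from 43.1 ± 6.73 to 74.4 ± 4.76 FPKM (0.8 ± 0.09), while CTSD, an aspartic protease, fell from 177 ± 22.5 to 105 ± 3.35 FPKM (-0.73 ± 0.07, edgeR adjusted p = 2.15e-06).

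Genes that ERK signalling is known to induce rose or did not pass. Of 27 ERK-induced genes 15 rose and 0 fell (11 and 0 with the sets summed), 9 of them at least 2-fold. FOSL1, a FOS-type partner in AP-1 (chromosome 11, 65892049 to 65900545), stood at 1.64, 2.69 and 6.1 FPKM in control and at 30.2, 37.9, 34.5, 61.8 and 64.6 FPKM at 16 mM (3.88 ± 0.31, edgeR adjusted p = 5.80e-07). The lowest exposed sample was above the highest control, and samples 4 and 5 were again the highest. DUSP5, a phosphatase that inactivates nuclear ERK, rose from 5.17 ± 2.699 to 36.4 ± 4.45 FPKM (2.84 ± 0.26). SPRY4, a feedback inhibitor, rose from 1.76 ± 0.9895 to 11.3 ± 1.399 FPKM (2.69 ± 0.29) and the ETS factors ETV4 and ETV5 from 4.39 ± 1.68 to 26.5 ± 5.303 FPKM (2.64 ± 0.22) and from 6.42 ± 3.32 to 34.1 ± 0.716 FPKM (2.45 ± 0.29, edgeR adjusted p = 1.10e-05). The early factors of the same list did not pass: the log2 values were -0.62 ± 0.32 for FOS, -0.05 ± 0.19 for JUN and -0.08 ± 0.21 for EGR1. FOS stood at -1.16 in samples 1 to 3 and at 0.13 in samples 4 and up, and JUN at -0.43 and 0.43, with control sample 1 the highest control for FOS, JUN and EGR1.

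HBEGF, a ligand of the EGF receptor (chromosome 5, 140332843 to 140346603), stood at 2.18, 2.42 and 4.34 FPKM in control and at 13.1, 16.2, 14.2, 27.6 and 25.9 FPKM at 16 mM (2.8 ± 0.25, edgeR adjusted p = 1.39e-06). Its receptor EGFR (chromosome 7, 55019017 to 55216855, a span of 198 kb) moved the other way, from 56.8, 59.95 and 63.6 FPKM to 30.8, 31.9, 31.9, 27.9 and 27.6 FPKM, a log2 change of -0.99 ± 0.05 (edgeR adjusted p = 1.96e-08) with no overlap. In the RAS-RAF-MEK-ERK list 8 of 29 tested members rose and 10 fell (1 and 5 with the sets summed), shares near those of all genes. MAP2K1, the kinase MEK1, rose from 35.7 ± 1.62 to 69.4 ± 9.93 FPKM (0.98 ± 0.1) and RPS6KA2, a kinase downstream of ERK, fell from 29.8 ± 0.8198 to 11.1 ± 1.68 FPKM (-1.42 ± 0.07, edgeR adjusted p = 1.93e-08). MAPK3, the kinase ERK1, did not pass (-0.08 ± 0.09, edgeR adjusted p = 0.413), with 0.1 in samples 1 to 3 and -0.29 in samples 4 and up. In the PI3K-AKT list 7 of 28 tested members rose and 13 fell (2 and 3 with the sets summed), with a rise of IRS2, an adaptor of the insulin receptor, from 5.21 ± 0.171 to 10.96 ± 1.36 FPKM (1.1 ± 0.09) and a fall of INPP4B, a lipid phosphatase, from 4.23 ± 0.361 to 1.498 ± 0.2099 FPKM (-1.56 ± 0.09, edgeR adjusted p = 6.19e-08). AKT1, the central kinase of the pathway, stood at 0.19 ± 0.08 (edgeR adjusted p = 0.0407), a call that was lost with the sets summed (edgeR adjusted p = 0.513) and without any 1 of control samples 1 to 3 or of 16 mM samples 1, 2, 3 and 5. PIK3CA, the catalytic subunit of the lipid kinase, did not pass (-0.1 ± 0.04, edgeR adjusted p = 0.0712).

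Further genes with large rises are given singly, some with the counts of their list. IL11, a secreted cytokine (chromosome 19, 55364382 to 55370463), rose 10.2-fold, from 0.792 ± 0.135 to 7.67 ± 2.11 FPKM (edgeR adjusted p = 1.09e-07). In the list of inflammatory cytokines and chemokines 3 of 12 tested members rose and 2 fell (1 and 0 with the sets summed), shares below those of all genes. HES1, a repressor downstream of Notch (chromosome 3, 194136148 to 194138732), stood at 0.38, 0.685 and 0.95 FPKM in control and at 5.35, 6.8, 6.54, 7.67 and 6.65 FPKM at 16 mM (3.27 ± 0.18, edgeR adjusted p = 3.45e-08). Of 18 Notch pathway genes 9 rose and 5 fell (4 and 3 with the sets summed): the receptor NOTCH1 rose from 7.12 ± 0.369 to 14.8 ± 1.24 FPKM (1.09 ± 0.08) and the coactivator MAML2, whose gene spans 367 kb, fell from 3.76 ± 0.166 to 0.442 ± 0.172 FPKM (-3.18 ± 0.17, edgeR adjusted p = 2.99e-08). MAFF, a small partner of NRF2 and AP-1 factors, rose from 6.46 ± 2.75 to 46.05 ± 2.48 FPKM (2.87 ± 0.21). SNAI1, a repressor of epithelial genes, rose from 0.773 ± 0.254 to 5.53 ± 1.16 FPKM (2.85 ± 0.24). In its list of epithelial-mesenchymal transition factors and cadherins 4 of 15 tested members rose and 6 fell (1 and 3 with the sets summed). SGK1, a kinase induced by stress and steroids, rose from 4.79 ± 1.41 to 33.4 ± 10.7 FPKM (2.82 ± 0.27, edgeR adjusted p = 2.00e-06). PHLDA2, a small lipid-binding protein, rose from 6.91 ± 0.692 to 59.1 ± 15.3 FPKM (3.12 ± 0.18). ANGPTL4, a secreted inhibitor of lipoprotein lipase, rose from 1.15 ± 0.3297 to 8.73 ± 3.301 FPKM (2.97 ± 0.28).

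In the TGF-beta list 10 of 23 tested members rose and 6 fell (5 and 3 with the sets summed), with a rise of ID2, an inhibitor of helix-loop-helix factors, from 1.67 ± 0.265 to 7.69 ± 3.17 FPKM (2.23 ± 0.27). Among NF-kB subunits and feedback targets 9 of 18 tested members rose and 5 fell (6 and 1 with the sets summed). RELB, a subunit, rose from 4.36 ± 1.17 to 11.4 ± 1.76 FPKM (1.41 ± 0.15). TNFAIP3, a feedback inhibitor, rose from 3.01 ± 0.545 to 5.35 ± 0.479 FPKM (0.86 ± 0.1, edgeR adjusted p = 7.44e-06). The count of falls there was 2 without 16 mM sample 4 and 3 without 16 mM sample 5 or control sample 4. Hypoxia and glycolysis genes rose in 15 of 29 cases and fell in 3 (8 and 0 with the sets summed), among them PFKFB4, which makes an activator of glycolysis, from 4.28 ± 0.706 to 9.84 ± 0.384 FPKM (1.22 ± 0.13, edgeR adjusted p = 4.13e-06).

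Genes for matrix proteins and for the receptors that hold them fell more often than they rose. Of 29 matrix protein genes 2 rose and 22 fell (2 and 19 with the sets summed), 18 at least 2-fold, with a median of -1.18, and the rises were 4 without control sample 4. FN1, fibronectin, stood at 372, 496 and 653 FPKM in control and at 97.8, 100.5, 99.9, 186 and 181 FPKM at 16 mM (-1.9 ± 0.27, edgeR adjusted p = 4.75e-05). Both groups were split by set, with the higher values in samples 4 and up, yet they did not overlap. FBN2, a microfibril protein (chromosome 5, 128257909 to 128538245, 280.3 kb), stood at 35.6, 43.02 and 48.3 FPKM in control and at 7.95, 7.05, 7.34, 6.56 and 6.28 FPKM at 16 mM, a log2 change of -2.58 ± 0.12 (edgeR adjusted p = 7.76e-09). COL8A1, a short-chain collagen, fell from 198 ± 44.3 to 59.5 ± 6.56 FPKM (-1.73 ± 0.17). LAMA1, a laminin chain (chromosome 18, 6941742 to 7117797), rose from 0.0283 ± 0.01602 to 1.04 ± 0.399 FPKM (5.2 ± 0.37, edgeR adjusted p = 2.19e-07), on control counts of 2 to 8 per sample.

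Integrins, the matrix receptors, fell in 9 of 14 cases and rose in 1 (0 and 6 with the sets summed). ITGB4, the integrin of hemidesmosomes (chromosome 17, 75721339 to 75757819), stood at 63.5, 71.1 and 76.5 FPKM in control and at 22.2, 21.6, 20.2, 12.8 and 13.2 FPKM at 16 mM, with samples 4 and 5 lowest (-1.97 ± 0.13, edgeR adjusted p = 1.09e-07). ITGB1, the common beta subunit, fell from 328 ± 25.4 to 156 ± 10.9 FPKM (-1.05 ± 0.1). Of 14 fibroblast and mesenchymal markers 0 rose and 10 fell (0 and 7 with the sets summed; without control sample 4, 1 rose), such as PDGFRB, a growth factor receptor, from 12.7 ± 3.37 to 3.504 ± 1.17 FPKM (-1.87 ± 0.24, edgeR adjusted p = 2.47e-05), and FAP, a surface protease, from 2.02 ± 0.3396 to 0.472 ± 0.108 FPKM (-2.07 ± 0.18). The summed level of those 19 markers in the table was 674 to 1072 FPKM in control and 569.6 to 693 FPKM at 16 mM. In a culture of 1 line, fewer cells of a state and less RNA per cell cannot be told apart.

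Polarity and junction genes fell in 12 of 25 cases and rose in 7 (1 and 9 with the sets summed). PARD3B, a polarity scaffold (chromosome 2, 204544513 to 205620162, 1076 kb), stood at 5.26, 6.38 and 9.25 FPKM in control and at 0.08, 0.08, 0.12, 0.07 and 0.07 FPKM at 16 mM. It was 77.5-fold lower (-6.28 ± 0.2, edgeR adjusted p = 4.74e-10), on counts of 9 to 15 per exposed sample. Its relative PARD3 fell from 28.8 ± 3.72 to 13.7 ± 1.63 FPKM (-1.23 ± 0.08), and MAGI1, a junction scaffold, by 4.05 ± 0.14 on the log2 scale of counts (edgeR adjusted p = 8.72e-10) while its level went from 3.04 ± 0.316 to 0.592 ± 0.407 FPKM. Adhesion molecules best known from neurons fell in 8 of 9 cases (0 and 7 with the sets summed). SDK1 (chromosome 7, 3301186 to 4269000, 968 kb) stood at 5.91, 6.43 and 7.02 FPKM in control and at 0.18, 0.14, 0.13, 0.22 and 0.23 FPKM at 16 mM (-5.19 ± 0.18, edgeR adjusted p = 8.72e-10). NEGR1 fell from 6.66 ± 1.23 to 0.35 ± 0.364 FPKM (-4.33 ± 0.31) and NCAM1 from 2.29 ± 0.256 to 0.218 ± 0.0853 FPKM (-3.37 ± 0.18).

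Genes of the actin and contractile apparatus fell in 12 of 22 cases (0 and 7 with the sets summed), and 1 rose, a number that was 4 without control sample 4, 3 without control sample 5 and 2 without control sample 6. With each set tested on its own, 7 rose and 13 fell in samples 1 to 3, against 6 and 14 in samples 4 and up. SORBS2, an adaptor of stress fibres, fell from 10.1 ± 0.475 to 0.766 ± 0.408 FPKM (-3.55 ± 0.26, edgeR adjusted p = 2.74e-07), and the troponins TNNT2 and TNNC1 from 25.6 ± 14.99 to 2.25 ± 0.825 FPKM (-3.52 ± 0.5) and from 104 ± 15.6 to 39.99 ± 2.22 FPKM (-1.38 ± 0.12, edgeR adjusted p = 7.48e-07). At the cell surface, MUC1, a membrane mucin, fell from 6.06 ± 1.08 to 0.55 ± 0.196 FPKM (-3.68 ± 0.23, edgeR adjusted p = 8.08e-08) and DMBT1, a secreted scavenger receptor of mucosa (chromosome 10, 122560677 to 122643736), rose 26.6-fold, from 0.203 ± 0.0784 to 5.502 ± 1.42 FPKM (edgeR adjusted p = 1.55e-08). KRT17, a keratin of stressed and basal epithelium, stood at 34.5, 48.99 and 60.9 FPKM in control and at 154, 189.6, 164, 193 and 202 FPKM at 16 mM (1.91 ± 0.17, edgeR adjusted p = 1.35e-06), and CDH2, N-cadherin, fell from 19.3 ± 0.667 to 7.63 ± 0.966 FPKM (-1.33 ± 0.07). Of 8 tested keratins 3 rose and 2 fell (2 and 0 with the sets summed). Of 9 tested airway epithelial markers 1 rose and 5 fell (1 and 3 with the sets summed), with a median of -0.4.

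Falls were most frequent among the genes with the longest span, the distance from start to end including introns. Among 228 tested genes over 400 kb 198 fell (86.8%) and 8 rose (3.51%), 62.7% fell at least 2-fold, and the median log2 change was -1.52 (quartiles -2.44 and -0.66). Among 1990 genes of 100 to 400 kb the median was -0.21, with 48.3% lower and 20.3% higher. In the bins of 30 to 100 kb, 10 to 30 kb and under 10 kb the medians were 0.07, 0.11 and -0.01. Per sample, the median ratio to the control mean over genes above 400 kb and 1 FPKM, as log2(FPKM + 0.1), was -1.16, -1.21, -1.15, -1.51 and -1.48 in 16 mM samples 1 to 5, against -0.11 to 0.12 in the controls. The long genes were low in every exposed sample and lowest in samples 4 and 5. Controls 4 to 6 were also the lower controls, at -0.11, -0.09 and -0.05, against 0.02, 0.12 and 0.09 in controls 1 to 3.

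**Figure D3:**
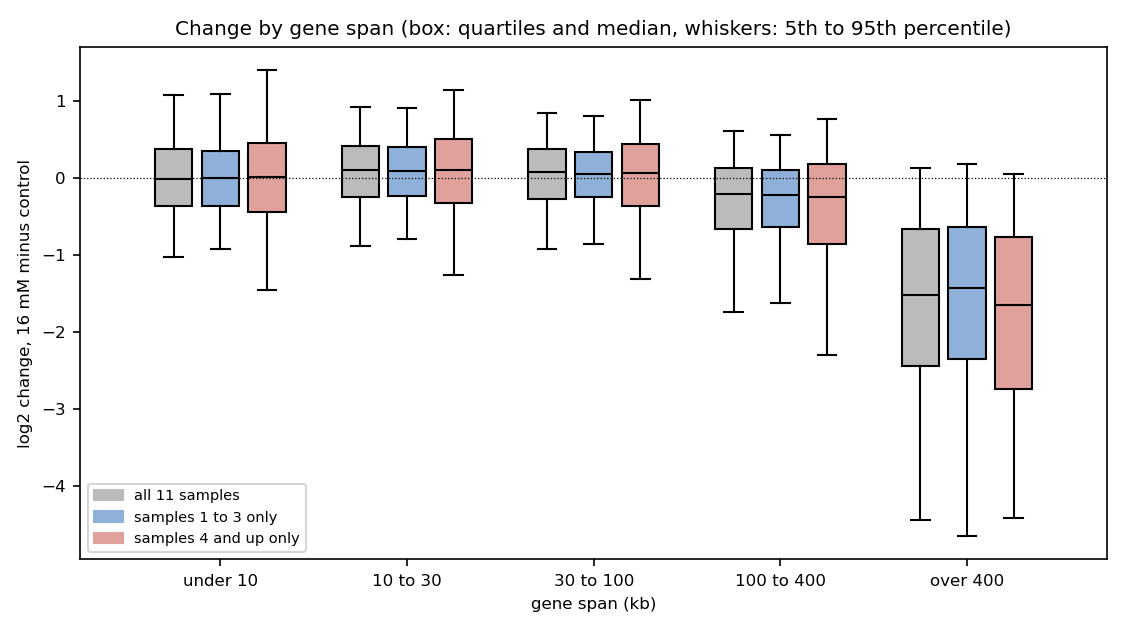
Log2 change at 16 mM against control by gene span in kb, for all 11 samples (grey), samples 1 to 3 only (blue) and samples 4 and up only (red). Boxes give quartiles and median and whiskers the 5th to 95th percentile: the medians over 400 kb are -1.52, -1.43 and -1.65.

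Among genes of 100 to 400 kb with at least 1 FPKM in control, falls were large for PTPRQ, a receptor phosphatase (chromosome 12, 80424261 to 80680273, 256 kb), from 2.09 ± 0.421 to 0.062 ± 0.0327 FPKM (-5.12 ± 0.29, edgeR adjusted p = 3.63e-08), and SSBP2, a DNA-binding cofactor (chromosome 5, 81402158 to 81751797, 349.6 kb), from 4.54 ± 0.476 to 0.176 ± 0.0879 FPKM (-4.6 ± 0.23). Over 400 kb, DPYD, the enzyme that starts pyrimidine breakdown (chromosome 1, 97077743 to 97921059, 843 kb), stood at 9.57, 10.8 and 15.1 FPKM in control and at 1.5, 1.06, 1.7, 1.01 and 0.8 FPKM at 16 mM (-3.7 ± 0.18, edgeR adjusted p = 1.37e-08). NEBL, a nebulin-type actin-binding protein (614 kb), fell from 17.8 ± 2.83 to 1.62 ± 0.498 FPKM (-3.42 ± 0.16). Of the 15 largest falls with at least 5 FPKM in control 11 had a usable span, and 9 of these were over 100 kb, against 1 of 12 among the 15 largest rises. Among all tested genes with a usable span, 2218 of 10480 were over 100 kb.

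Span overlaps with the gene groups above, so it is given beside them. Of 26 matrix genes with a span 13 were over 100 kb, of which 12 fell, and of the 13 shorter ones 8 fell and 1 rose, with a median of -1.0. The fibroblast markers had 2 of 12 over 100 kb, and 8 of the 10 shorter ones fell (median -1.3). Of 8 shorter integrin genes 5 fell (median -0.78). The polarity list had 10 of 17 over 100 kb, of which 8 fell, whereas 2 of 7 shorter members fell and 2 rose (median -0.07). All 6 neuronal adhesion genes with a span were over 100 kb. In the Notch list the shorter members had a median of 0.76, against 0.3 for all members. The part of span in each group's result was not tested.

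DNA replication genes fell in 22 of 43 cases and rose in 7 (1 and 10 with the sets summed). POLA1, the polymerase that primes new strands (chromosome X, 24693877 to 24996986, 303 kb), stood at 47.1, 50.01 and 57.1 FPKM in control and at 24.04, 22.4, 23.6, 13.3 and 13.1 FPKM at 16 mM, with samples 4 and 5 lowest (-1.43 ± 0.14, edgeR adjusted p = 2.76e-06). MCM5, a subunit of the replicative helicase, fell from 52.7 ± 3.17 to 26.6 ± 5.58 FPKM (-0.97 ± 0.09) and its partner CDC45 from 78.4 ± 16.6 to 40.2 ± 4.21 FPKM (-0.95 ± 0.11). LIG1, the ligase of the lagging strand, fell from 49.4 ± 3.005 to 27.1 ± 4.58 FPKM (-0.85 ± 0.08, edgeR adjusted p = 1.53e-06). Mitotic genes counted 5 higher and 5 lower of 35, and 0 and 0 with the sets summed. CENPE, a kinetochore motor, went from 24.7 ± 5.22 to 17.2 ± 0.994 FPKM (-0.51 ± 0.15, edgeR adjusted p = 0.0107, but edgeR adjusted p = 0.139 with the sets summed). The count of risen mitotic genes was 0 without control sample 2 or 3, 2 without control sample 1, 8 without control sample 4 and 9 without control sample 5, and from 1 to 3 without any 1 of the 16 mM samples.

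In excision repair 8 of 33 tested members rose and 16 fell (4 and 5 with the sets summed). UNG, the glycosylase that removes uracil, fell from 38.1 ± 4.24 to 20.6 ± 5.21 FPKM (-0.88 ± 0.12, edgeR adjusted p = 4.73e-05), and NEIL2, a glycosylase of oxidised bases, rose from 2.76 ± 0.425 to 5.6 ± 0.545 FPKM (1.09 ± 0.12). In the Fanconi anaemia list, whose products repair the crosslinks that aldehydes can form, 6 of 25 tested members rose and 10 fell (1 and 2 with the sets summed). FANCC, part of its core complex, fell from 15.1 ± 1.63 to 8.702 ± 2.33 FPKM (-0.76 ± 0.13), and UBE2T, the enzyme that supplies ubiquitin to the pathway, rose from 110.0 ± 8.56 to 169 ± 27.99 FPKM (0.63 ± 0.07, edgeR adjusted p = 1.31e-05).

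In the list of G1 cyclins, cyclin-dependent kinases and their inhibitors 9 of 25 tested members rose and 11 fell (3 and 2 with the sets summed), with a median of -0.18. CCND1, cyclin D1, which drives entry into S phase, rose from 10.3 ± 2.71 to 35.4 ± 13.2 FPKM (1.8 ± 0.27, edgeR adjusted p = 7.00e-05). CDKN1A, the inhibitor p21, rose from 71.02 ± 15.5 to 132 ± 38.5 FPKM with overlapping groups (0.91 ± 0.17, edgeR adjusted p = 4.95e-04). E2F5, a repressor of cell cycle genes, went from 1.73 ± 0.539 to 0.744 ± 0.1301 FPKM (-1.2 ± 0.2, edgeR adjusted p = 1.81e-04, but edgeR adjusted p = 0.0605 with the sets summed). CDKN1C, the inhibitor p57, went from 4.9 ± 1.15 to 2.52 ± 0.934 FPKM (-0.92 ± 0.25, edgeR adjusted p = 0.00605, but edgeR adjusted p = 0.0977 with the sets summed), at -0.24 in samples 1 to 3 and -1.83 in samples 4 and up. In the BCL2 and apoptosis list 10 of 26 tested members rose and 6 fell (6 and 1 with the sets summed), the falls being 3 without 16 mM sample 4. PMAIP1, the death activator NOXA, rose from 40.3 ± 5.74 to 81.9 ± 19.3 FPKM (1.0 ± 0.15, edgeR adjusted p = 7.42e-05).

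Some groups gave different counts when each set of samples was tested on its own, a difference between sets that was itself not tested. Among all genes 34.6% were called higher and 35.4% lower in samples 1 to 3, and 39.1% and 39.5% in samples 4 and up. Of 32 cholesterol and fatty acid synthesis genes 23 rose and 3 fell in samples 1 to 3 (median 0.81), against 10 and 17 in samples 4 and up (median -0.34). Of 42 cytosolic ribosomal proteins 1 rose and 36 fell in samples 1 to 3 (median -0.28), against 13 and 13 in samples 4 and up (median -0.01). Of 35 mitotic genes 23 rose and 2 fell in samples 1 to 3 (median 0.28), against 8 and 17 in samples 4 and up (median -0.08). IDI1, an enzyme that makes the isoprenoid building block, showed 2.29 and 1.23 in samples 1 to 3 and in samples 4 and up. The controls differed: IDI1 averaged 26.3 FPKM in controls 1 to 3 and 58.4 FPKM in controls 4 to 6, against 133 and 138 FPKM at 16 mM. By contrast 22 heat shock genes rose and 0 fell in samples 1 to 3 (median 1.5), against 23 and 0 in samples 4 and up (median 1.49), and for NRF2 targets 21 rose and 4 fell in samples 1 to 3 (median 0.86), against 20 and 7 in samples 4 and up (median 0.97). Over all genes 6944 passed with the same sign in both sets and 498 with opposite signs, and a change of at least 2-fold in both was seen for 258 called rises and 725 called falls.

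**Figure D4:**
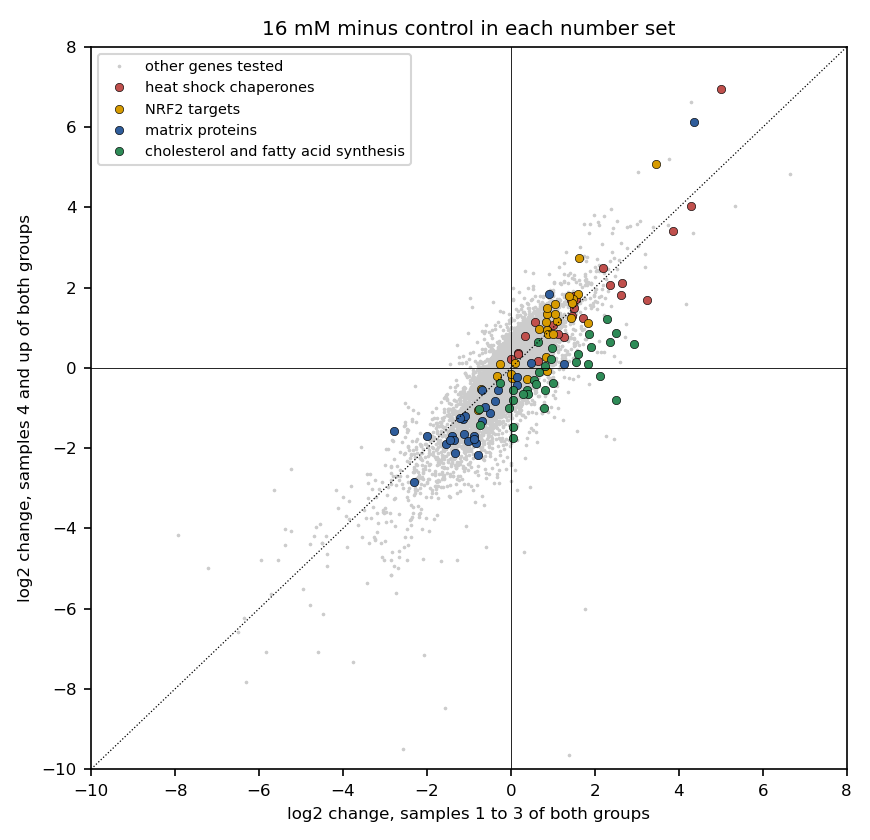
Log2 change at 16 mM against control in samples 1 to 3 (x axis) and in samples 4 and up (y axis) for each gene tested, with 4 gene groups in colour and a dotted line of equal change. Medians in samples 1 to 3 and in samples 4 and up are 1.5 and 1.49 for heat shock genes, 0.86 and 0.97 for NRF2 targets, -0.88 and -1.3 for matrix genes and 0.81 and -0.34 for cholesterol and fatty acid synthesis genes.

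Interferon response genes fell in 10 of 33 cases and rose in 3 (2 and 2 with the sets summed). The share of falls, 30.3%, was near that of all genes (31.6%), and the share of rises, 9.09%, was below it (32.7%). IFI44L, an interferon-induced protein, stood at 4.18, 7.57 and 27.5 FPKM in control and at 2.05, 2.18, 1.76, 0.27 and 0.22 FPKM at 16 mM (-3.16 ± 0.65, edgeR adjusted p = 9.70e-04), so its controls spread widely. IFI27, another member, was called higher, but with the sets summed its log2 change of 2.09 did not pass (edgeR adjusted p = 0.205). With each set tested on its own, 20 members fell in samples 1 to 3 and 20 in samples 4 and up. Of 42 genes of oxidative phosphorylation 3 rose (7.14%) and 10 fell (23.8%), shares below those of all genes (0 and 2 with the sets summed). Their median was -0.05, and 29 did not pass. NDUFV1, a subunit of complex I, fell from 116 ± 1.42 to 71.2 ± 2.17 FPKM (-0.68 ± 0.05, edgeR adjusted p = 3.65e-07). Among single regulators, ARNTL, the clock factor BMAL1, fell from 14.6 ± 3.17 to 5.17 ± 1.96 FPKM (-1.5 ± 0.22, edgeR adjusted p = 6.29e-05). MLXIPL, a sugar-sensing factor, fell from 33.6 ± 3.94 to 10.7 ± 4.51 FPKM (-1.65 ± 0.22). TET1, which oxidises methylcytosine, fell from 1.003 ± 0.162 to 0.362 ± 0.0705 FPKM (-1.53 ± 0.18). SIRT1, a deacetylase, rose from 17.6 ± 1.19 to 32.7 ± 1.13 FPKM (0.92 ± 0.05). KDM6B, a histone demethylase, rose from 3.502 ± 0.217 to 6.76 ± 0.239 FPKM (0.97 ± 0.06). MXD1, an antagonist of MYC, rose from 1.76 ± 0.205 to 5.15 ± 0.415 FPKM (1.57 ± 0.08, edgeR adjusted p = 1.55e-08).

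Set against 10 mM samples 2 to 6, 23% of 12304 genes were higher at 16 mM and 21.8% lower. This comparison shares its 16 mM samples with the one against control, so values are given side by side. It was not repeated with the sets summed, so no stricter count stands beside its counts. HSPA6 averaged 1.13 ± 0.117 FPKM at 10 mM, and its difference of 16 mM from 10 mM was 3.32 ± 0.29, edgeR adjusted p = 4.42e-05. POLR2A averaged 58.2 ± 9.36 FPKM (1.42 ± 0.2, edgeR adjusted p = 3.64e-04), FOSL1 16.3 ± 3.92 FPKM (1.51 ± 0.26, edgeR adjusted p = 0.00113) and PARD3B 0.334 ± 0.163 FPKM (-2.0 ± 0.36, edgeR adjusted p = 0.00142). FN1, by contrast, was already at 152 ± 31.2 FPKM at 10 mM and did not pass (-0.17 ± 0.25, edgeR adjusted p = 0.593), and CDKN1A stood at 219.8 ± 117 FPKM (-0.72 ± 0.35, edgeR adjusted p = 0.115).

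By group, 15 of 23 heat shock genes were higher at 16 mM than at 10 mM and 0 lower, and for ribosome biogenesis the numbers were 21 and 0 of 32. NRF2 targets were split, 11 higher and 6 lower of 29. Matrix genes were lower in 19 of 28 cases and integrins in 9 of 14. Cholesterol and fatty acid synthesis genes were lower than at 10 mM in 24 of 32 cases and higher in 0. Their change against control differed between the sets, and the difference from 10 mM was not tested in each set. Among 204 genes over 400 kb the median difference from 10 mM was -0.51, with 64.7% lower and 1.96% higher.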

How the data were processed

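RNA-seq tables for the 17 samples were deposited with estimated counts, FPKM and TPM per gene. Per the submitters' processing notes, the authors used HISAT, Bowtie2 2.3.4.3, RSEM 1.3.1, DESeq2 1.4.5 and build GRCh38.p13, with no role given for each. Strand use in counting was not stated per the labels, so genes that overlap or lie antisense cannot be told apart. The deposited expected counts, 13.081% of them not whole, were rounded before testing. FPKM values of the authors served for levels, and the deposited TPM values were checked only for their sum. The authors' deposited table of log2 fold changes and q-values listed 8316 genes at a q-value under 0.05, and 7848 of the 7979 genes called here were among them with the same sign.

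Counts were tested with edgeR 4.0.16 (R 4.3.3): TMM scaling (factors 0.9449 to 1.062), filterByExpr, which kept 12410 of 16884 genes holding at least 99.944% of each sample's counts, a quasi-likelihood test with 9 residual degrees of freedom, and Benjamini-Hochberg adjustment over all genes tested, called at 0.05. Standard errors were derived from each log2 change and its F statistic. On simulated counts for 12410 genes of this comparison, 70%, 84%, 98% and 100% of genes changed 1.5-, 2-, 4- and 8-fold were recovered, with 6 false calls among 182. The simulated samples were drawn independently, without the difference between the sample sets seen in the data. False calls that arise from that difference were therefore not measured. Gene span was taken from the coordinates in the table, for 13887 genes whose span agreed within 2-fold with GENCODE 29, and promoter windows came from RefSeq.

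Genes were named from the 15 largest rises and falls without overlap and at least 5 FPKM, up to 5 called members of each list at 1 FPKM or more, the largest falls of long genes, and a few anchor genes. TXNRD1, CBR1, FOS, JUN, EGR1 and POLR2I lie outside that rule and were chosen after their values were seen. Apart from CD68, the genes named in the check of the cell type also lie outside it. Some genes that the rule takes are not reported here. The members and gene lists were chosen with earlier results of these data known. Alternatives were the replicate number as a block, DESeq2 (1.42.0) size factors and Wald test, no filter, limma (3.58.1) on log2(FPKM + 1) or log2(FPKM + 0.1), limma voom, fits over all groups, a term for the sample sets, each set alone, sums per set, and each sample left out. GENCODE 29 spans were added after the data were seen.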

Additional observations from a re-analysis of the deposited data

Results flagged for a closer look

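Among 286 pairs of a gene and a group, 9 held a sample far from the others by Dixon's test, which flags about 1 in 20 by chance. In control sample 1, FOS was at 231 FPKM, JUN at 202 FPKM, EGR1 at 466 FPKM and DUSP5 at 10.5 FPKM, each above the other 5 controls. IRS2 was at 5.54 FPKM in control sample 2, above the other controls. At 16 mM, NFE2L2 was at 46.1 FPKM in sample 5, below the other 4, and JUN was at 122 FPKM in the same sample, above them. NCAM1 was at 0.37 FPKM in 16 mM sample 1 and PARD3B at 0.12 FPKM in 16 mM sample 3, both above the rest of their group and below every control.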

How the results depend on the processing

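The fit over all 17 samples called 2169 genes higher and 2270 lower, and 443 members over the gene lists, against 851 reported. Without 10 mM sample 1 that fit called 4232, 4039 and 885. Summing counts within the sets left 1333, 1583 and 348. Changes of at least 2-fold numbered 666 higher without a filter, 217 higher and 480 lower with limma on log2(FPKM + 1), and 712 higher and 1503 lower in samples 4 and up alone. The cause of these shifts was not tested. Leaving out 1 sample at a time gave 3797 to 3944 higher and 3673 to 3980 lower, 388 to 449 and 860 to 1075 at 2-fold, 802 to 839 list members, and a median of -1.56 to -1.47 for genes over 400 kb. That median was -1.49 with GENCODE 29 spans.

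Of 143 genes followed through the alternatives, nearly all of them named above, summing the sets ended 17 calls and the fit over all samples 19. In the fit over the groups without 10 mM sample 1 all 143 kept their result. In samples 4 and up alone FOS stood at 0.13 and JUN at 0.43, opposite in sign to their values over all samples, neither of which had passed. KRT18 and CDK1, which are not described above, and IFI27 lost their calls without single samples, as AKT1 did, and NUPR1 lost its call with limma voom (adjusted p = 0.0626). PIK3CA passed under 6 alternatives.

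Same-numbered samples of the groups correlated in their deviations by -0.052, 0.254, 0.245, 0.253 and 0.226, and 3 of 5 matched best with their own number. These values do not settle whether the numbers pair the samples, and the main test did not pair them. The part of the sample sets in these correlations was not tested. With that number as a replicate block, 3998 genes were higher and 3939 lower, 429 and 948 at 2-fold, and 873 list members passed. The call of DDIT4 (edgeR adjusted p = 0.124) was lost in it, as were those of AKT1 and KRT18. Depth limits genes with few counts, such as HSPA6 and LAMA1 in control and PARD3B at 16 mM.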
